A study of Mus musculus with 4 samples.

Results

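Genes of families best known for copying, packaging and separating chromosomes were followed here as hosts of circular RNAs (circRNAs) in the developing mouse lung. The hosts were chosen by gene symbol alone: symbols made of Cep, Cdk, Kif, Mcm, Smc, Stag or Bub and a digit, symbols starting with Cenp, and Ccna2, Ccnb1, Ccnd2, Knl1, Hells, Lmnb1, Lbr and Melk. They came to 81 of the 4653 host genes in the deposited lists and 312 of the 13499 circRNAs. These symbols also take in genes with other work, such as Cdk12, Cdk13, Cdk14, Kif16b and Mcm3ap. The name chromosome and centrosome hosts stands below for the whole set, and groups within it were made by symbol too. Ccna2, Ccnb1 and Ccnd2, which encode cyclins, had no listed circRNA in any library.

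Total RNA was sequenced from whole lungs of C57BL/6 mice, with 1 library at each of 4 stages. These were the pseudoglandular stage (embryonic day 14.5), the canalicular stage (embryonic day 16.5), the terminal sac stage (embryonic day 18.5) and the alveolar stage (newborn day 7.5). The labels name no treatment or altered gene, and the number of animals behind each library is not stated in them. A single library for each stage means that nothing checks a difference against the spread between animals, so no p-value is given and each comparison is one of libraries. All intervals are 95% intervals that cover the counting error of reads only, and reads copied by PCR are not independent molecules.

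A circRNA forms when the end of an exon is spliced back to the start of the same or an earlier exon, which leaves a closed ring with no free ends. Rings lack the ends at which most messenger RNA decay begins, and are known as long-lived compared with the linear transcripts of their hosts. During a cell division, cohesin holds the copied chromosomes together, condensin compacts them, kinetochores attach them to the spindle that grows from the centrosomes, and a checkpoint waits for every attachment. Many of the genes for this machinery are transcribed mostly in dividing cells, and the early branching lung is rich in such cells.

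Each ring is recognised by its back-splice junction, where the last bases of its last exon meet the first bases of its first exon. The junctions that the results turn on are written below, 5′ to 3′ on the strand of the gene. Lower case gives the final 20 bases of the last exon and capitals give the opening 20 bases of the first exon, so the splice lies at the change of case. They were assembled from GENCODE M21 transcripts on mm10 at the deposited coordinates, and all lie in coding sequence. The 4 Cep112 rings and the 3 Cdk13 rings are shown together because the members of each set share 1 side of the junction.
Bub1b exons 17 to 19, chr2:118631759-118635277, plus strand: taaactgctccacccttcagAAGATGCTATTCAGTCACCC
Bub1b exons 16 to 17, chr2:118630945-118631899, plus strand: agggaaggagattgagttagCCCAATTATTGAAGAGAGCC
Knl1 exons 9 to 12, chr2:119076936-119086650, plus strand: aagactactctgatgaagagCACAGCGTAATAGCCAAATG
Lbr exons 4 to 7, chr1:181825622-181832232, minus strand: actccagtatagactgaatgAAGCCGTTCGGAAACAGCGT
Kif23 exons 14 to 17, chr9:61924632-61926518, minus strand: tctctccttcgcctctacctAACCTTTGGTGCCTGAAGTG
Kif2a exons 5 to 9, chr13:106982524-106988075, minus strand: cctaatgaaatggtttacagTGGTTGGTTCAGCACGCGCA
Cdk13 exons 2 to 5, chr13:17763104-17772957, minus strand: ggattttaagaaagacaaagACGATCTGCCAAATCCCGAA
Cdk13 exons 2 to 7, chr13:17750257-17772957, minus strand: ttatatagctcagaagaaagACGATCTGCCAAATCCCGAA
Cdk13 exons 2 to 9, chr13:17738917-17772957, minus strand: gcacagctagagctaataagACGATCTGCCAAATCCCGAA
Cep112 exons 8 to 18, chr11:108486593-108531465, plus strand: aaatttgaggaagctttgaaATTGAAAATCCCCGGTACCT
Cep112 exons 10 to 18, chr11:108498244-108531465, plus strand: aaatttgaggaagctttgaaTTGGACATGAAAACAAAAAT
Cep112 exons 11 to 18, chr11:108503066-108531465, plus strand: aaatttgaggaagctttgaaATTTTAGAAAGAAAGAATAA
Cep112 exons 14 to 18, chr11:108518679-108531465, plus strand: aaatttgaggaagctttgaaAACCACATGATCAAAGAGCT

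The lists held 25983, 31218, 36156 and 28332 junction reads in order of stage, and every listed circRNA had at least 2. A marker at 0 has no listed ring, which does not measure its messenger RNA. Lung epithelial markers, of which 4 of 7 were hosts and Nkx2-1, Epcam and Cdh1 were at 0, had 8, 11, 451 and 739 junction reads. Mesenchymal markers, 3 of 4 as hosts with Tcf21 at 0, had 17, 2, 2 and 173, and endothelial markers, 4 of 4 as hosts, had 6, 19, 24 and 56. Erythroid markers, with both haemoglobin genes at 0, had 12, 27, 21 and 7 reads, and immune markers, 3 of 3 as hosts, 6, 17, 10 and 7. Striated muscle markers, 2 of 3 as hosts with Myh6 at 0, had 73, 11, 8 and 12 reads, most of them in the pseudoglandular library, and neural markers, 1 of 3 as hosts, had 0, 2, 7 and 2. The part of these shifts in cell make-up in the results below was not tested. In whole tissue, fewer cells of a type and less RNA per cell cannot be told apart.

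The chromosome and centrosome hosts together carried 529, 727, 729 and 399 junction reads from the pseudoglandular to the alveolar library. That was 2.04% (1.87 to 2.22), 2.33% (2.16 to 2.50), 2.02% (1.87 to 2.17) and 1.41% (1.27 to 1.55) of each list, by exact Clopper-Pearson intervals. The alveolar share lay below the other 3. The number of these hosts listed was 50, 50, 53 and 39 of 81, where 2476, 2535, 2707 and 2352 of all 4653 hosts were listed. Set against the pseudoglandular library, the alveolar share was 1.45-fold lower (1.27 to 1.65), and set against the terminal sac library it was 1.43-fold lower (1.27 to 1.62). The first of these differences was not even across hosts. Bub1b had 58 pseudoglandular and 6 alveolar reads, Stag1 51 and 22, and Cdk5rap2 33 and 4. Of the 23 hosts with 10 or more reads in that pair 12 had a lower alveolar share, where 53.1% of all hosts did. The terminal sac share was 1.16-fold lower than the canalicular share, but with scaling by the median ratio of shared circRNAs that ratio came to 1.003, so its direction depends on the scaling.

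Reads were concentrated in few hosts. The 15 hosts with most reads held 1684 of the 2384 reads, which is 70.6%. There were 25 hosts listed in all 4 libraries and 31 listed in 1 library only. Of the 81 hosts 39 had under 10 reads over all libraries, with 145 reads between them, and are described mainly by where they were listed.

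The rings of these genes were mostly made of whole internal exons. Both ends lay at exon boundaries of 1 transcript in 265 of 312 circRNAs (84.9%), against 74.0% of the other circRNAs in the lists. The median ring held 5 exons and 702 spliced bases, against 4.5 exons and 649 bases for the others. Exon 2, a frequent first exon of mouse circRNAs, opened 48 of the boundary-matched rings (18.1%), against 29.8% for the others. Most rings were seen once: 226 of 312 (72.4%) were listed in a single library, near the 74.5% of the others, and the 22 listed in all 4 held 40.8% of the reads, against 51.0% for the others.

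A few splice sites served many rings. Cep112, which encodes a coiled-coil protein of the centrosome, gave 21 circRNAs, and 189 of its 289 reads ended at the same donor, that of exon 18. All 4 Cep112 junctions written above carry that donor in lower case. In Cdk13, a kinase that phosphorylates RNA polymerase II, 163 of 185 reads began at the acceptor of exon 2, the shared capitals of its 3 junctions. Cep350, a large centrosome-associated protein, had 109 of 118 reads on its most used site, and Stag1, a cohesin subunit with 30 rings, had 93 of 177 on its own.

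**Figure D1:**
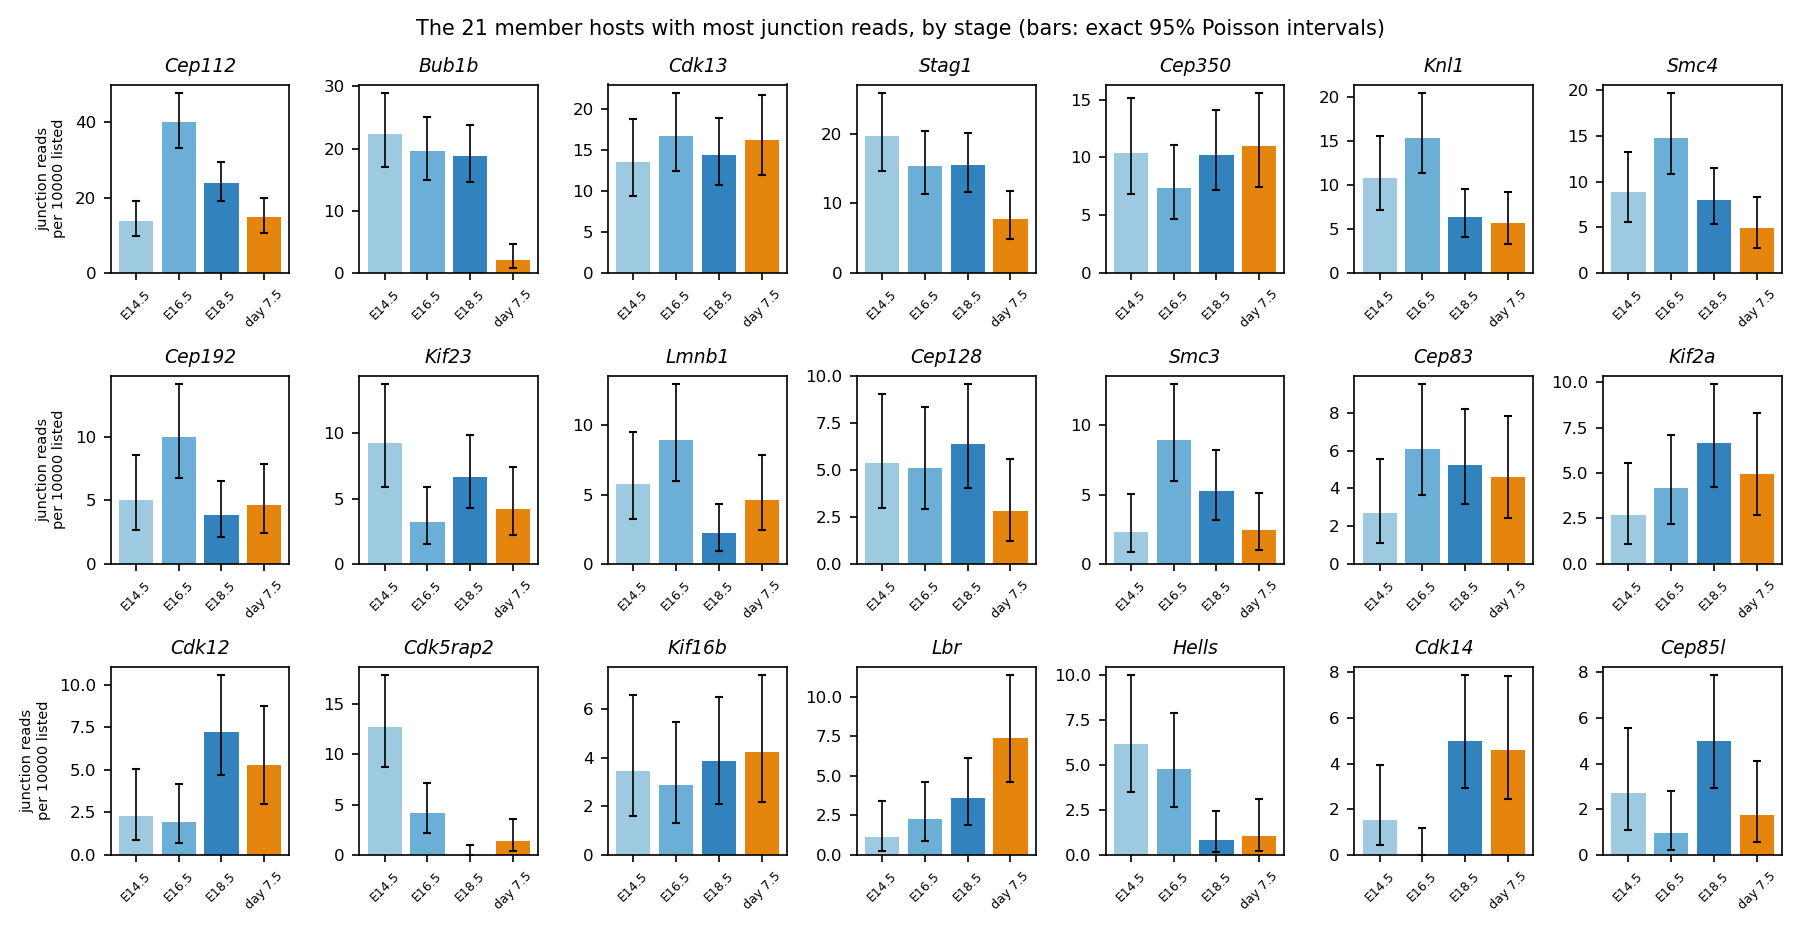
Junction reads per 10000 listed junction reads (vertical axis, a separate scale for each panel) for the 21 hosts with most reads, in 4 libraries ordered by stage, with exact 95% Poisson intervals as bars; blue is embryonic and orange newborn. Bub1b, Stag1 and Hells have low alveolar bars, Lbr has its highest there, and Cep112 has its highest in the canalicular library.

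Kinetochore and checkpoint hosts had a lower share in the alveolar library than in each embryonic one. The 12 hosts held 104, 123, 98 and 28 junction reads, or 0.400%, 0.394%, 0.271% and 0.0988% of the lists. The alveolar share was 0.247 of the pseudoglandular share (0.157 to 0.378). Bub1b alone held 58, 61, 68 and 6 of these reads, so the step from the terminal sac to the alveolar library rests mainly on that host. Knl1, the next by reads, had an alveolar share 0.888 times the terminal sac share (0.438 to 1.76). In the alveolar library 4 of the 12 hosts were listed, namely Bub1b, Knl1, Cenpc1 and Cenpn, where 2352 of all 4653 hosts were.

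Bub1b, a checkpoint protein that delays chromosome separation, had 58, 61, 68 and 6 junction reads. The 3 embryonic values lay close together and the alveolar value stood far below them. It was 10.5-fold lower in the alveolar than in the pseudoglandular library (4.56 to 29.9) and 8.88-fold lower than in the terminal sac library (3.88 to 25.05). Its main ring, exons 17 to 19, had 39, 50, 51 and 6 reads. The short ring of exons 16 to 17 had 13, 0, 6 and 0, and was at least 4.73-fold lower in the alveolar than in the pseudoglandular library, counting the missing value as 3 reads. A further ring, exons 16 to 20, had 0, 5, 9 and 0 reads with few distinct alignment patterns.

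Knl1, the kinetochore scaffold to which checkpoint proteins bind, had 28, 48, 23 and 16 reads over 16 rings. Its reads were highest in the canalicular library, and the terminal sac share was 2.42-fold lower than the canalicular (1.44 to 4.16). The ring of exons 9 to 12 followed the same course with 6, 20, 6 and 0 reads. It was 2.77-fold higher in the canalicular than in the pseudoglandular library (1.07 to 8.44). Another Knl1 ring, exons 9 to 11, stayed level with 3, 5, 5 and 5 reads.

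The other kinetochore hosts were sparse. Cenpc1, which binds centromeric chromatin, had 0, 9, 3 and 3 reads. Cenpf and Cenph had 4 and 6 reads in the pseudoglandular library, and Cenpe, Cenpi and Cenpo 2 each there. Cenpf and Cenpj also had 2 reads each in the terminal sac library, where the other 3 and Cenph were not listed. Cenpj, named as a centromere gene, encodes a protein of centriole assembly, and had 2 pseudoglandular reads. Cenpk and Bub3 were listed in the canalicular library only, with 3 and 2 reads, and Cenpn in the alveolar library only, with 3.

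Cohesin and condensin hosts had 92, 139, 131 and 52 reads, and their alveolar share was 0.518 of the pseudoglandular share (0.362 to 0.736). Stag1 had 51, 48, 56 and 22 reads, level through the 3 embryonic libraries and lower at the alveolar stage. It was 2.53-fold lower in the alveolar than in the pseudoglandular library (1.51 to 4.38). Its ring of exons 2 to 9 had 12, 12, 15 and 0 reads, at least 4.36-fold lower in the alveolar library, while the ring of exons 6 to 9 had 10, 7, 8 and 5.

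Stag2, the alternative subunit of the cohesin complex, showed a different course. It had 0, 0, 20 and 0 reads, all in the terminal sac library and spread over 4 rings. Counting each missing value as 3 reads, the terminal sac share was at least 5.76-fold higher than the canalicular. The alveolar share was at least 5.22-fold lower than the terminal sac in the same way. Unlisted reads over several rings could sum to more than 3. Non-junction reads are listed only beside a ring, so linear Stag2 RNA in the other 3 libraries was not measured here.

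Among the ring-shaped core subunits, Smc3 of cohesin had 6, 28, 19 and 7 reads, highest in the canalicular library. It was 3.88-fold higher there than in the pseudoglandular library (1.58 to 11.5), and its ring of exons 8 to 13 had 12 reads in the canalicular library and none elsewhere. Smc1a of cohesin had 4, 9, 2 and 4 reads, and its terminal sac share was 5.21-fold lower than the canalicular (1.08 to 49.6), a call lost with scaling by the median of ratios. Of its 19 reads 11 came from 1 ring, exons 17 to 19, with a 6-base repeat at its ends. Smc4 of condensin had 23, 46, 29 and 14 reads. Of its 46 canalicular reads 25 came from 1 ring, exons 7 to 9, that had few alignment patterns and a 7-base repeat at its ends. Smc5 and Smc6, of the related repair complex, had 4, 3, 2 and 3 reads and 0, 5, 3 and 2 reads. The meiotic cohesin gene Smc1b had 4 pseudoglandular reads of the intron type with no linear read.

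Centrosome and cilium hosts formed the largest group by reads, with 161, 240, 216 and 130. Their alveolar share was 0.741 of the pseudoglandular share (0.583 to 0.939). Cep112 had 36, 125, 86 and 42 reads, a canalicular peak that was 2.89-fold above the pseudoglandular library (1.98 to 4.31). The ring of exons 10 to 18 had 10, 30, 22 and 14 reads and that of exons 14 to 18 had 14, 21, 22 and 11, so the peak was not even across rings. A ring at the far end of the gene, exons 22 to 25, had 0, 19, 12 and 5 reads and was at least 5.27-fold higher in the canalicular than in the pseudoglandular library.

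Cdk5rap2, which anchors the microtubule-nucleating complex to the centrosome, had 33, 13, 0 and 4 reads. Its reads were highest in the pseudoglandular library and absent from the terminal sac list. The canalicular share was 3.05-fold lower than the pseudoglandular (1.56 to 6.31) and the alveolar share 8.996-fold lower (3.20 to 35.0). The terminal sac share was at least 5.02-fold lower than the canalicular, counting the missing value as 3 reads. These reads were spread over 9 rings, the fullest of which, exons 15 to 23, had 8 pseudoglandular reads with few alignment patterns.

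Cep192, which recruits material around the centrioles, had 13, 31, 14 and 13 reads. Its terminal sac share was 2.56-fold lower than the canalicular (1.32 to 5.22), and 1 ring, exons 28 to 30, carried the change with 3, 20, 4 and 3 reads. Cep85l, a centrosome protein of migrating neurons, had 7, 3, 18 and 5 reads. It was 5.18-fold higher in the terminal sac than in the canalicular library (1.51 to 27.5) and 2.82-fold lower in the alveolar than in the terminal sac library. That second call was lost under 3 alternatives.

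Other centrosome hosts were steadier. Cep350 had 27, 23, 37 and 31 reads, of which 96 of 118 lay on the ring of exons 2 to 6, with 23, 19, 32 and 22. Cep128 and Cep83, of the appendages of the mother centriole, had 14, 16, 23 and 8 reads and 7, 19, 19 and 13 reads. Within Cep83, exons 8 to 10 had 0, 3, 6 and 10 reads while exons 2 to 5 had 5, 10, 11 and 3, so the order of the stages was not shared. The 14 remaining hosts of this group had 10 reads or fewer in all. Among them Cep135 was listed in the first 2 stages with 7 and 3 reads, Cep85 in the last 2 with 5 each, and Cep72 in the pseudoglandular library alone with 8.

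The cyclin-dependent kinase hosts had 50, 66, 119 and 79 reads, and their alveolar share was 1.45 times the pseudoglandular share (1.004 to 2.11). The members called, Cdk12, Cdk14 and Cdk17, are not the kinases that drive cells through division. Cdk12, like Cdk13 a kinase of elongating RNA polymerase II, had 6, 6, 26 and 15 reads and was 3.74-fold higher in the terminal sac than in the canalicular library (1.51 to 11.1). Of its 53 reads 45 came from 1 ring, chr11:98263470-98267858 on the plus strand, which lies beyond the protein-coding transcripts of the gene. These end at 98251564, and the ring joins exons 5 to 7 of a non-coding transcript of the gene. Among member rings whose host has protein-coding transcripts it is the only 1 outside them, and it had 6, 6, 18 and 15 reads. Its junction, written as above, is shown because no coding exon is in it.
Cdk12 ring beyond the coding transcripts: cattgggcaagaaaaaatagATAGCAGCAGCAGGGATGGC
The 3 rings of coding exons were listed in the terminal sac library only. By itself the ring beyond the coding transcripts was 2.59-fold higher in the terminal sac than in the canalicular library (0.985 to 7.97). That interval includes equality, so the ring was not called.

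Cdk14, a membrane-associated kinase of Wnt signalling, had 4, 0, 18 and 13 reads, at least 5.18-fold higher in the terminal sac library. Cdk17 had 5, 2, 12 and 2 reads, 5.18-fold higher in the terminal sac than in the canalicular library (1.15 to 47.7) and 4.70-fold lower in the alveolar than in the terminal sac library. Both Cdk17 calls were lost under some alternative.

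Cdk13 had 35, 52, 52 and 46 reads and was called in no comparison of hosts. Its rings did not move together. The ring of exons 2 to 5 had 15, 14, 15 and 3 reads and was 5.45-fold lower in the alveolar than in the pseudoglandular library (1.54 to 29.4). The larger rings from the same acceptor, exons 2 to 7 and exons 2 to 9, had 9, 17, 9 and 14 reads and 11, 12, 21 and 14 reads, with alveolar values no lower than pseudoglandular ones. Cdk8 and Cdk19, kinases of the Mediator complex, had 0, 3, 6 and 3 reads and 0, 0, 5 and 0 reads, and Cdk10 had 3 canalicular reads.

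Kinesins, motor proteins that move along microtubules, had 73, 86, 124 and 66 reads over 22 hosts, and their alveolar share of 0.829 times the pseudoglandular share had an interval that includes equality (0.585 to 1.17). Kif23, a motor of the central spindle in cytokinesis, had 24, 10, 24 and 12 reads, with no steady course. The canalicular share was 2.88-fold lower than the pseudoglandular (1.33 to 6.76). The alveolar share was 2.18-fold lower than the pseudoglandular (1.05 to 4.79), a call lost under both other scalings and without rings that have repeats or few alignment patterns. No Kif23 read lay on such a ring, so leaving those rings out changed only the library totals. Kif15, a spindle motor, had 3, 5, 12 and 2 reads, 4.70-fold lower in the alveolar than in the terminal sac library, a call lost under 2 alternatives. Kif14 and Kif24 were absent from the alveolar list, with 7, 6, 4 and 0 reads and 6, 9, 0 and 0 reads.

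Kinesins of transport and microtubule turnover had no common course. Kif2a, which shortens microtubules, had 7, 13, 24 and 14 reads, and Kif16b, a motor of endosomes, had 9, 9, 14 and 12. Kif26b had 0, 8, 6 and 8 reads, all on the single-exon ring of exon 3. Kif1b, a carrier of vesicles and mitochondria, had 7, 0, 5 and 6 reads. Kif21a was listed in the last 2 stages with 6 reads each, Kif13a had 2, 0, 4 and 4 reads, and Kif6 had 2, 3, 5 and 2. Among the mitotic motors Kif11, Kif18a, Kif20a, Kif20b and Kif4 none had more than 6 reads and none was listed in the alveolar library. Several other motors were not listed there either. Kif3a, Kif3b and Kif3c, of the kinesins that carry cargo in cilia and axons, had 0, 2, 3 and 0 reads, 0, 3, 7 and 0 reads and 0, 4, 0 and 0 reads. Kif5b had 2 canalicular reads, Kif13b 2 each in the pseudoglandular and terminal sac libraries, and Kif27 2 terminal sac reads.

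Replication and remodelling hosts had 23, 31, 18 and 3 reads, so that the alveolar share was 0.120 of the pseudoglandular share (0.0230 to 0.396). Hells, a chromatin remodeller needed for DNA methylation, had 16, 15, 3 and 3 reads. It was high in the first 2 libraries and low in the last 2. The alveolar share was 5.82-fold lower than the pseudoglandular (1.66 to 31.1) and the terminal sac share 5.79-fold lower than the canalicular (1.64 to 31.2). None of the 6 Mcm hosts, most of which encode the replicative helicase and its relatives, was listed in the alveolar library, where 2352 of all 4653 hosts were. Each Mcm host had 12 reads or fewer over all libraries, while the 4653 include hosts with many more. Among them, Mcm4 had 2, 5, 5 and 0 reads and Mcm9 3, 2, 6 and 0.

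The nuclear envelope hosts went separate ways. Lbr, the lamin B receptor and a sterol reductase, had 3, 7, 13 and 21 reads, higher at each later stage. It was 6.42-fold higher in the alveolar than in the pseudoglandular library (1.92 to 33.6), and the ring of exons 4 to 7, with 3, 7, 13 and 18 reads, was 5.50-fold higher (1.61 to 29.2). Lmnb1, lamin B1 itself, had 15, 28, 8 and 13 reads, and its terminal sac share was 4.05-fold lower than the canalicular (1.80 to 10.3). Melk, a kinase of dividing progenitors, had 6, 7, 2 and 7 reads. Mcm3ap, whose protein exports messenger RNA, had 2 pseudoglandular reads.

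**Figure D2:**
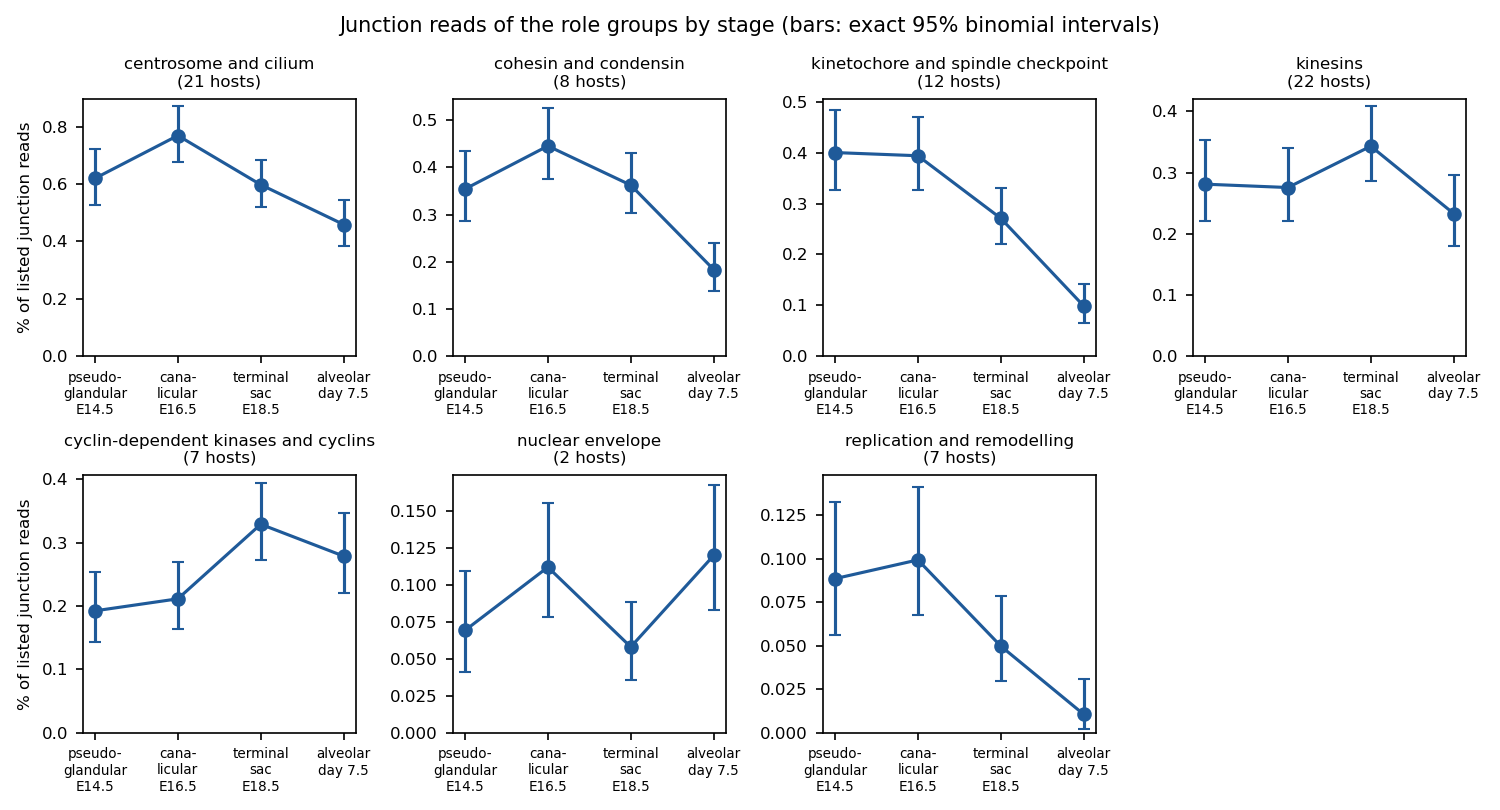
Share of listed junction reads (percent, vertical axis, a separate scale for each panel) of 7 groups of hosts in the 4 libraries ordered by stage, with exact 95% binomial intervals; Melk and Mcm3ap are not drawn. The kinetochore group ends at 0.0988% and the replication group at 3 reads in the alveolar library, whereas the kinase group is higher in the last 2 libraries than in the first 2.

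The hosts were next set against all hosts in the lists. A host was compared when it had 10 or more reads in a pair of libraries, and called higher or lower when its share differed at least 2-fold with an interval excluding 1. In the alveolar library set against the pseudoglandular, 1 of the 23 chromosome and centrosome hosts compared was called higher, Lbr, where 13% of all 1088 hosts were. There were 5 called lower, namely Bub1b, Cdk5rap2, Hells, Stag1 and Kif23, where 16.5% of all hosts were. The median log2 ratio was -0.12 for the members and -0.12 for all hosts. The medians thus did not differ, while the summed share, in which hosts with many reads weigh more, was lower. With either other scaling the members split into 2 higher, adding Cdk14, and 4 lower.

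**Figure D3:**
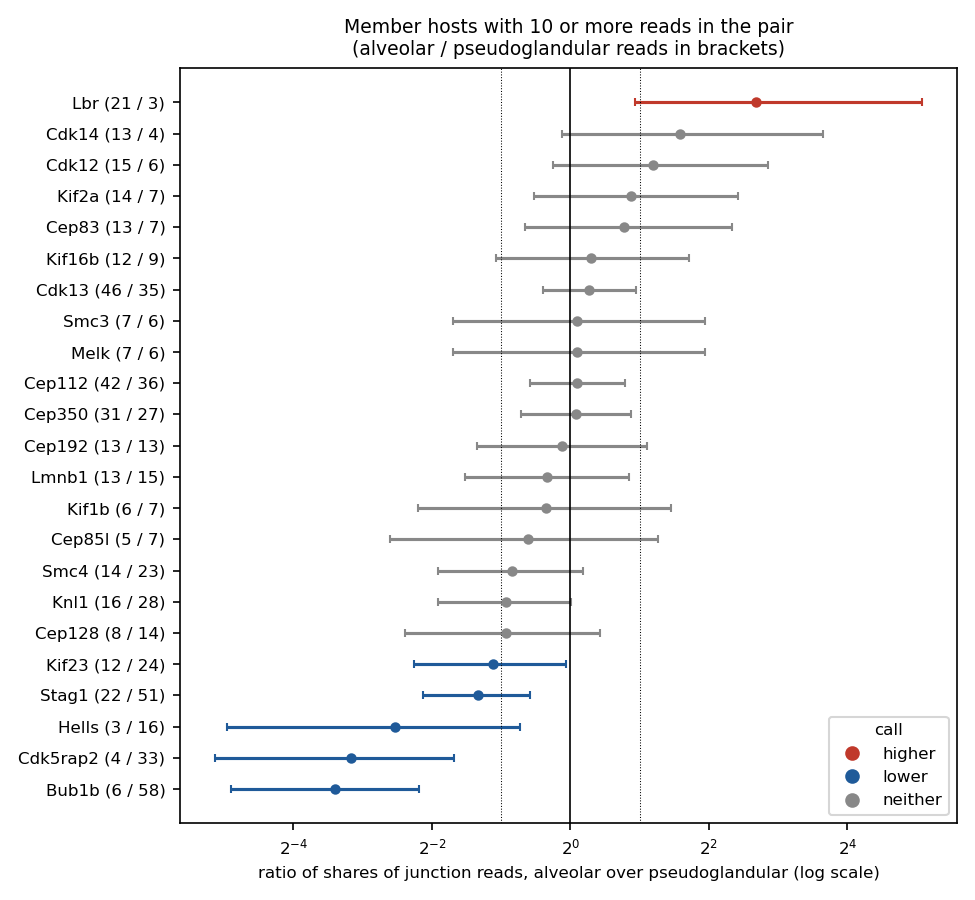
Ratio of the alveolar to the pseudoglandular share of junction reads (horizontal axis, log scale) for the 23 member hosts with 10 or more reads in the pair, with exact conditional 95% intervals; dotted lines mark 2-fold. Lbr lies furthest to the right and Bub1b furthest to the left, and most intervals cross equality.

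Between neighbouring stages the numbers were similarly modest. In the canalicular library set against the pseudoglandular, 2 of 25 hosts were higher (8.84% of all hosts), Cep112 and Smc3, and 2 were lower (11.4% of all), Cdk5rap2 and Kif23. Scaling by the median of ratios gave 3 higher and scaling by non-junction reads gave 4, with Cep192 and then Cep83 added, and 2 lower under each. The median log2 ratio was -0.04 for members and 0.01 for all hosts. In the terminal sac library set against the canalicular, 5 of 30 were higher (12.2% of all), namely Cdk12, Cdk14, Cdk17, Cep85l and Stag2. There were 6 lower (12.1% of all), namely Cdk5rap2, Cep192, Hells, Knl1, Lmnb1 and Smc1a. The medians were -0.13 and 0.02. Over all hosts 151 were higher and 150 lower, but 197 and 97 with scaling by the median of ratios.

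In the alveolar library set against the terminal sac, 0 of 26 hosts were higher (12.1% of all) and 5 were lower (12.4% of all), namely Bub1b, Cdk17, Cep85l, Kif15 and Stag2. The medians were -0.31 for members and -0.23 for all hosts. Scaling by non-junction reads gave 1 higher, Lbr, and 4 lower. The comparisons share libraries with each other, so a high or low library enters more than 1 of them.

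Single rings were compared by the same rule. In the alveolar library set against the pseudoglandular, 1 of 20 rings was called higher, that of Lbr exons 4 to 7 (12.2% of all rings compared), and 4 were lower (17.4% of all). Those were Bub1b exons 17 to 19 and 16 to 17, Cdk13 exons 2 to 5 and Stag1 exons 2 to 9. In the canalicular library set against the pseudoglandular 5 of 27 rings were higher (8.16% of all) and 1 lower (9.83% of all). The 5 were Cep112 exons 10 to 18 and 22 to 25, Cep192 exons 28 to 30, Knl1 exons 9 to 12 and the Smc4 ring with few alignment patterns. The median log2 ratio of rings in that pair was 0.54 for members and 0.07 for all, whereas the medians of hosts were near 0. In the terminal sac library set against the canalicular 0 of 31 were higher (8.94% of all) and 6 lower (11.2% of all), although 5 hosts were called higher there. The last step had 0 of 28 higher (10.5% of all) and 3 lower (11% of all).

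The linear reads of the same genes were compared in the same way. Non-junction reads are reads aligned linearly across the ends of a listed ring. They came to 75080, 83243, 47373 and 29892 for these hosts, or 2.55%, 2.66%, 1.25% and 1.05% of all listed non-junction reads. The alveolar share of linear reads was 2.44-fold lower than the pseudoglandular, against 1.45-fold for junction reads. The terminal sac share of linear reads was 2.13-fold lower than the canalicular, against 1.16-fold for junction reads. In the 2 other pairs the linear share differed by less than the junction share. The alveolar share of linear reads was 1.19-fold lower than the terminal sac share, against 1.43-fold for junction reads, and the canalicular share was 1.04 times the pseudoglandular, against 1.14 times for junction reads. These sums cover the rings listed in each library, which are not all the same rings.

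The circular share sets these together, and is the fraction the authors deposited: 2 times the junction reads divided by the sum of 2 times the junction reads and linear reads. Summed over the chromosome and centrosome hosts it was 1.39%, 1.72%, 2.99% and 2.60% in order of stage. Over all listed circRNAs it stayed between 1.74% and 1.96%. A ring enters a list only with 2 or more junction reads, so the share is known only where rings were seen. In sums over a host, linear reads at an end that several rings share are counted more than once.

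Host by host, the circular share was higher in the alveolar than in the pseudoglandular library for 11 of 23 members (47.8%), where 15.1% of 989 hosts were. None of the 23 was lower, where 8.19% of all hosts were. The call again needs a 2-fold difference and an interval excluding 1, here for the odds of a junction against a linear read, by Woolf's method. The median odds ratio was 1.93 for members and 1.11 for all hosts. The 11 were Bub1b, Cep192, Cep83, Hells, Kif23, Kif2a, Knl1, Lbr, Melk, Smc3 and Smc4. Of the cyclin-dependent kinases 3 were compared, Cdk12, Cdk13 and Cdk14, and none of them was called.

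Melk had the highest odds ratio of the 11. Its 7 alveolar junction reads stood beside 76 linear reads and its 6 pseudoglandular junction reads beside 860, giving circular shares of 15.6% and 1.38% and an odds ratio of 13.0 (4.43 to 38.1). On the 1 ring listed in both libraries it had 7 junction and 76 linear reads in the alveolar library, and 4 and 536 in the pseudoglandular. Hells had 3 junction and 111 linear reads in the alveolar library, and 16 and 3264 in the pseudoglandular, an odds ratio of 6.21 (1.93 to 19.99). No Hells ring was listed in both libraries, so this ratio compares 1 alveolar ring with 3 other pseudoglandular rings and no junction with itself.

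Knl1 rose to a circular share of 6.17% in the alveolar library, against 1.66% in the pseudoglandular (odds ratio 3.95, 2.14 to 7.29). Smc4 rose to 0.984%, against 0.316% (3.18, 1.65 to 6.13), on linear reads of 2818 against 14533. Lbr had more junction reads in the alveolar library, while linear reads at its ring of exons 4 to 7 were 506 there against 901 in the pseudoglandular. For that ring the circular share was 0.662%, 1.39%, 3.41% and 6.64% in order of stage, higher at each step. Kif2a also had more junction and fewer linear reads in the alveolar library, 14 and 255 against 7 and 453. So did Cep83, with 13 and 646 against 7 and 956.

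**Figure D4:**
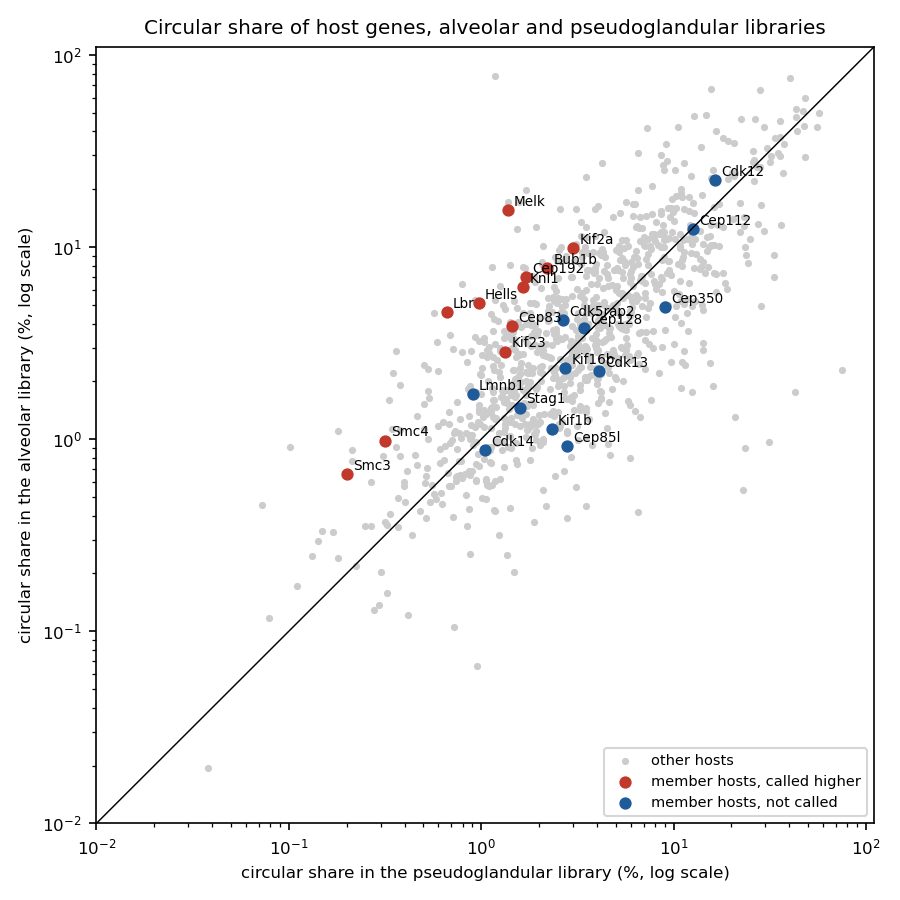
Circular share (percent) in the alveolar library (vertical axis, log scale) against that in the pseudoglandular library (horizontal axis, log scale) for 989 host genes, 1 point each, with the line of equality. The 11 member hosts called higher, in red, lie above the line, and the 12 member hosts not called, in blue, lie on both sides of it.

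Rings listed in only 1 library of a pair can move a sum over a host, so the comparison was repeated on rings listed in both. There 8 of 18 members were higher in the alveolar library (15.5% of all hosts were) and 0 lower (5.97% of all), with median odds ratios of 1.52 and 1.18. The 8 were Cep192, Kif23, Kif2a, Knl1, Lbr, Lmnb1, Melk and Smc4. The calls of Bub1b, Cep83, Hells and Smc3 were not among them. The Bub1b ring of exons 17 to 19 had circular shares of 7.79% in the alveolar and 5.20% in the pseudoglandular library. Its odds ratio was 1.64 (0.704 to 3.83). When only rings with 5 or more reads in both libraries were kept, a limit set after the data had been seen, 4 of 10 members and 61 of 417 hosts were higher.

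Summed over the 35 member rings listed in both libraries, there were 228 junction and 12557 linear reads in the alveolar library, and 254 and 28363 in the pseudoglandular. The circular shares were 3.50% and 1.76%, an odds ratio of 2.03 (1.69 to 2.43). The other 1336 rings listed in both gave an odds ratio of 1.12 (1.10 to 1.15). The intervals of these sums do not overlap, but they cover read counting only and not the spread between hosts or animals.

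The step from the canalicular to the terminal sac library gave an odds ratio of like size. On 50 shared member rings there were 430 junction and 16544 linear reads in the terminal sac library, and 447 and 35383 in the canalicular, an odds ratio of 2.06 (1.80 to 2.35). The other rings shared by this pair gave 1.36 (1.33 to 1.38), so a part of the change was common to all genes. Over hosts, 8 of 27 members were higher in the terminal sac library (18.8% of all were) and 1, Cdk12, was lower (5.17% of all). The 8 were Bub1b, Cep128, Hells, Kif14, Kif15, Kif23, Mcm4 and Stag1, and the medians were 1.68 for members and 1.32 for all hosts. On rings listed in both, 4 of 20 members were higher, Bub1b, Cep128, Kif23 and Smc4, which is close to the 20.5% of all hosts, and 0 lower (2.42% of all).

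The Bub1b ring of exons 17 to 19 shows these steps in 1 junction. Its linear reads were 1421, 1158, 256 and 142, and its junction reads 39, 50, 51 and 6. The circular share was thus 5.20%, 7.95%, 28.5% and 7.79%. In the terminal sac library the odds were 4.61 times the canalicular (3.05 to 6.95), with linear reads down and junction reads level. In the alveolar library the odds were 0.227 times those of the terminal sac (0.098 to 0.527), with both kinds of read down and the ring by more.

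Kif23 exons 14 to 17 had a like course up to the terminal sac stage, with 10, 7, 12 and 5 junction reads beside 1317, 1289, 256 and 316 linear reads. Its terminal sac odds were 8.38 times the canalicular (3.36 to 20.9). For Lmnb1 exons 2 to 5 both kinds of read were fewer at that step, with 15, 28, 8 and 11 junction reads beside 3292, 2792, 623 and 927 linear reads. For Cep350 exons 2 to 6 the linear reads stayed near level, at 231, 318, 296 and 282. Kif2a exons 5 to 9 moved early, with circular shares of 3.72%, 12.1%, 16.2% and 13.8% on linear reads of 259, 189, 155 and 138.

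**Figure D5:**
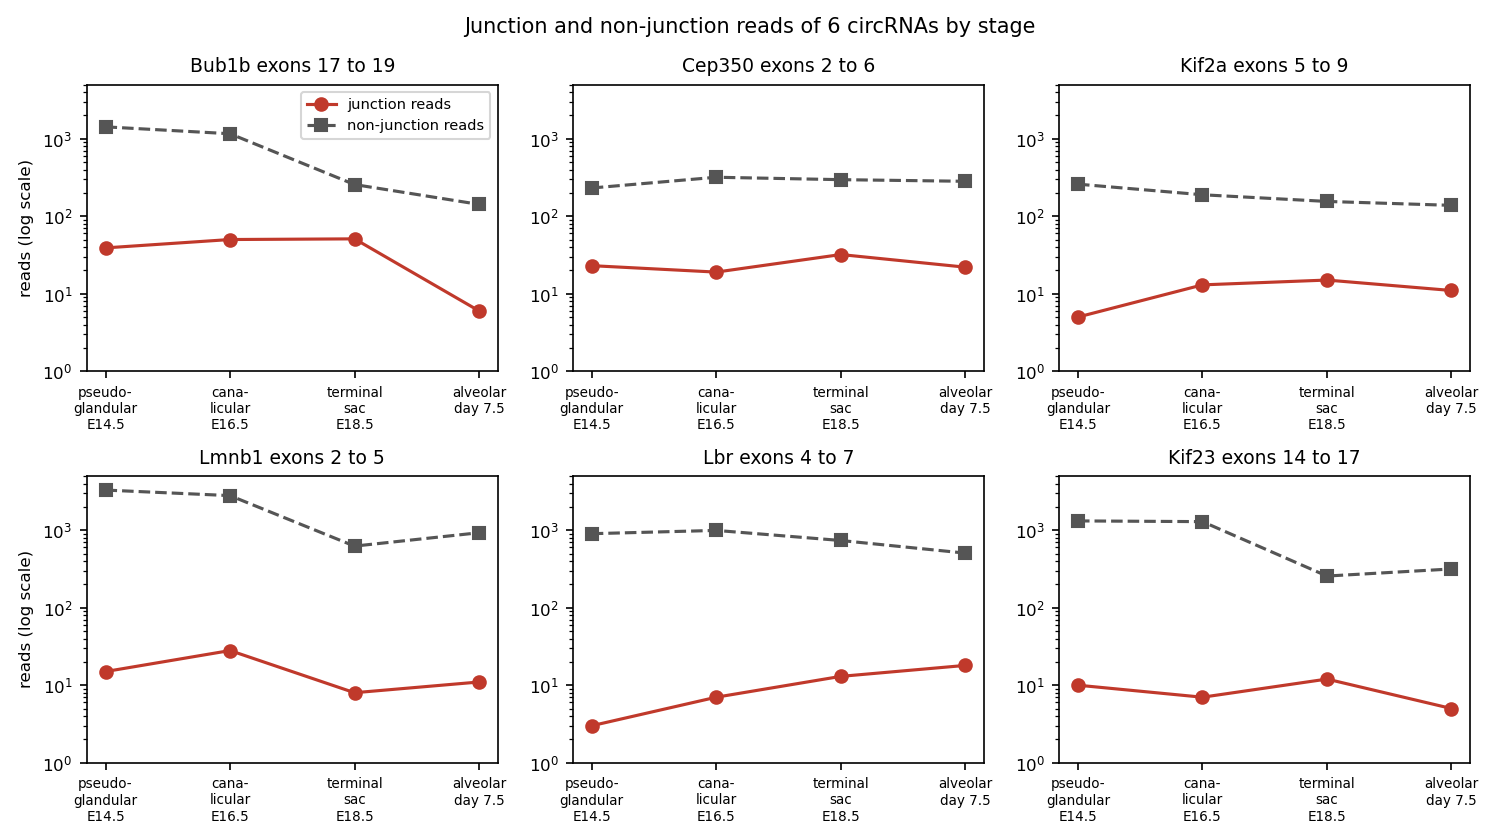
Junction reads (red circles) and non-junction reads (grey squares, dashed) of 6 rings in the 4 libraries ordered by stage, as raw counts on a log scale that is the same in each panel. In Bub1b and Kif23 the linear line drops at the terminal sac stage while the ring line does not, in Cep350 both lines are level, and in Lbr the lines converge.

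In the canalicular library set against the pseudoglandular 4 of 25 members had a higher circular share (8.69% of all), Cep192, Kif2a, Lmnb1 and Smc3, and 0 a lower one (8.02% of all). On rings listed in both, 3 of 17 were higher (10.3% of all) and 0 lower (4.4% of all), with median odds ratios of 1.53 for members and 1.18 for all hosts. Summed over the 40 member rings that this pair shares, the odds ratio was 1.44 (1.23 to 1.68), against 1.09 (1.07 to 1.12) for the other shared rings.

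In the alveolar library set against the terminal sac 1 of 25 was higher (7.01% of all), Cdk12, and 2 were lower (14.3% of all), Cep85l and Kif23. On rings listed in both, 0 of 20 were higher (2.57% of all) and 4 lower (18.8% of all), namely Bub1b, Cdk17, Cep112 and Cep85l. Rings shared by that pair gave odds ratios of 0.795 for members (0.680 to 0.930) and 0.785 for the others. The Cdk12 calls rest on its coding rings, which add many linear reads and were listed in the terminal sac library only. The ring beyond the coding transcripts had 61, 111, 126 and 104 linear reads.

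Other genes of the same processes, taken from lists of names, were compared in the alveolar library set against the pseudoglandular by the same rule, under which 13% of all hosts were higher and 16.5% lower. Of 53 DNA replication genes 31 were hosts and 3 could be compared, and of these 1 was lower, the chromatin ATPase gene Atad2 with 19, 13, 16 and 7 reads. Of 49 further kinetochore, spindle and cytokinesis genes 8 could be compared, and of these 0 were higher and 2 lower. Their median log2 ratio was -1.21, against -0.12 for all hosts. Top2a, which untangles chromosomes, was 5.45-fold lower (1.16 to 51.2). Of 37 further centrosome genes 11 could be compared, and Cntln was 2.56-fold lower (1.59 to 4.22) while Pcnt was 5.81-fold higher.

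Of 4 cohesin regulators compared in the same pair of libraries 1 was higher and 1 lower. Esco1, which acetylates cohesin, was 6.73-fold higher (2.02 to 35.1) with 3, 11, 13 and 22 reads. Ctcf, the factor at which cohesin halts, was at least 3.998-fold lower with 11, 10, 7 and 0 reads, counting the missing value as 3. Of 11 further cell-cycle regulators compared, Ccny, the cyclin partner of Cdk14, was 8.25-fold higher. Wee1, which restrains entry into mitosis, was at least 5.09-fold lower with 14, 10, 2 and 0 reads, counted in the same way. In each of these 3 lists the remaining genes compared were not called, 9 each for the centrosome genes and regulators and 2 for the cohesin regulators. A single call each way in lists of this size does not set them apart from all hosts.

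Promoters were read for sequence motifs of genes transcribed late in the cell cycle or at its start. RefSeq promoters on GRCm38.p6, from 250 bases before to 50 after the start, were found for 69 of the 81 hosts. The cell-cycle homology region, searched as TTTGAA or TTCGAA on both strands, was in 23 of 69 (33.3%), among them Bub1b, Knl1, Kif23 and Lbr, against 19.4% of all 27025 genes. The CCAAT box, searched as CCAAT on both strands, was in 36 (52.2%), against 37.9% of genes. E2F sites, searched as TTTGGCGC, TTTCCCGC, TTTGGCGG or TTTCGCGC on both strands, were in 10 (14.5%), against 2.42% of genes. The 10 were Cep128, Hells, Kif15, Kif18a, Mcm6, Mcm7, Mcm8, Melk, Smc1a and Stag1. The 27025 genes were not limited to hosts of circRNAs. Shares among the other hosts were not computed, so these differences cannot be taken as particular to the members among hosts.

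The promoter of Bub1b is shown because it was the host lowest in the alveolar library set against the pseudoglandular. Its RefSeq and GENCODE starts are the same base. The 200 bases before that start hold TTCGAA 188 bases before it and CCAAT, on the other strand, 113 bases before it, both in capitals. TTTGAA also begins 40 bases after the start, outside the stretch shown, and no E2F letters were found.
Bub1b promoter, chr2:118598011-118598210, plus strand: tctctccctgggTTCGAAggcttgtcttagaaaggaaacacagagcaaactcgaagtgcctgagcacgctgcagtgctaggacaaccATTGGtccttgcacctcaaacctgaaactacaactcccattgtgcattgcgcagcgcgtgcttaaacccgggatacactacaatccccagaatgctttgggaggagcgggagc
No motif searched contains another. A match of letters is a description of the sequence, and no binding was measured.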

How the data were processed

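The authors' deposited files list circRNAs for 4 libraries of total lung RNA, 1 for each stage, in the column layout of the caller CIRI. Junction and linear (non-junction) reads were deposited as raw read counts for each circRNA, per the file headers; a blank linear count was taken as 0. The circular share was also deposited, as a fraction, and gave 0 mismatches when recomputed. The deposited alignment-pattern numbers are other values, per the file headers, and were used to mark circRNAs with few distinct patterns. The build mm10 and the tools BWA, HTSeq, StringTie, cutadapt and HISAT2 2.0.5 are named in the submitters' processing notes. The roles of these tools and the filtering are not given in the sources used here.

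Hosts came from the deposited gene identifiers, 4647 of 4653 of which are in GENCODE M21, and junction reads were summed by host and library. No member circRNA had several host identifiers, and 0 member reads were listed under more than 1 circRNA. Shares of listed junction reads were compared by their ratio with an exact conditional binomial 95% interval, for hosts or circRNAs with 10 or more reads in the pair. A call needed a 2-fold difference and an interval excluding 1. An unlisted value was set to 3 reads per library, which makes a fold a bound only if the unlisted reads were 3 or fewer. A host with several rings could hold more, and the filtering is not known. Circular shares were compared by the odds ratio with Woolf's interval after adding 0.5 to each count. A ring counts as having a repeat where at least 6 identical bases stand at its ends in the transcript, and few patterns means 8 or more junction reads with at most 1 pattern per 3 reads. The scripts were tested on simulated data. Python 3.11.15 was used with numpy 2.4.6, pandas 2.3.3, scipy 1.17.1 and matplotlib 3.10.9.

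Named hosts are those the rule gives by full symbol, the 15 with most reads and every host called in a comparison. Named circRNAs have 10 or more reads in some library, and further members are named to account for each group. Of other genes of the pathway up to 5 called hosts of a list are named. Some genes of these lists and of the marker lists are not reported here. The members and the lists were chosen with earlier results of these data known. Alternatives were other scalings, read minimums, ring types and call rules.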

Additional observations from a re-analysis of the deposited data

How the results depend on the processing

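Of 26 calls of single hosts 20 were kept under every alternative that gave a value, 6 were lost under at least 1, and 0 reversed. Not every alternative could lose a call. Those with no interval, with no minimum of reads or with 20 or more reads leave the ratio as it was and cannot lose one. Limiting hosts to single-gene identifiers removed no member ring and changed only the library totals. The lost calls were both of Cdk17, Cep85l and Kif15 in the alveolar against terminal sac pair, Kif23 in the alveolar against pseudoglandular pair, and Smc1a. For the alveolar against the pseudoglandular library, the 1 host called higher became 2 with scaling by the median of ratios, by non-junction reads, or without rings with repeats or few patterns, and 3 with no interval. Without those rings 1 host had a lower circular share, and with rings of 5 or more reads in both libraries 4 had a higher one. For the canalicular against the pseudoglandular library, hosts called higher were 4 with non-junction scaling or rings of 3 or more reads, hosts called lower were 4 with no interval, and the share ratio of 1.14 became 1.29 with non-junction scaling. For the terminal sac and canalicular pair, the share ratio of 0.866 became 1.003 by the median of ratios, 3 hosts each were higher and lower with 20 or more reads, and 8 were higher with no interval. Circular shares there were higher in 4 and lower in 0 hosts on rings listed in both libraries, and in 3 and 0 with 5 or more reads. For the alveolar against the terminal sac library, hosts called higher were 1 with non-junction scaling, without rings with repeats or few patterns, or with rings of 3 or more reads, and 2 with no interval. Hosts called lower were 3 with 20 or more reads or with rings of 3 or more, and 2 without rings with repeats or few patterns. Circular shares there were higher in 0 and lower in 4 hosts on rings listed in both, higher in 0 with 5 or more reads, and higher in 2 without rings with repeats or few patterns. The cause of these differences was not tested, except that stricter minimums compare fewer hosts.

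The median log2 ratio of all hosts shifted by 0.12 and 0.17 in the alveolar against pseudoglandular pair with the median of ratios and non-junction scaling, by 0.18 in the canalicular against pseudoglandular pair with non-junction scaling, and by 0.21 in the terminal sac against canalicular pair with the median of ratios. Without rings with repeats or few patterns it shifted by 0.15 in the first of these pairs and by 0.12 in the alveolar against terminal sac pair. With no minimum of reads, which adds hosts of few reads, it shifted by -0.28 in the canalicular against pseudoglandular pair, by -0.23 in the terminal sac against canalicular pair, and by 0.58 in the alveolar against terminal sac pair, where -0.23 became 0.35. The alternative with 5 or more reads in both libraries was added after the data had been seen. No paired analysis was possible because each stage has 1 library. Between 23 and 30 of the 81 hosts had the reads to be compared in a pair, and smaller shifts were not detectable at this depth.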
